A study of Mus musculus with 56 samples.

Results

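Cerebral cortex of Fmr1 knockout (KO) mice was compared with wild-type (WT) cortex by RNA sequencing, with 3 samples of each genotype. These 6 samples, chosen by their labels for tissue and genotype, belong to a series of 56. In the same series, hippocampus and cerebellum of the same 2 genotypes, also with 3 samples each, were used here only to set cortical values beside them. The labels name the knocked-out gene and the tissue. The labels leave out the allele, strain, age and sex of the mice and do not say whether each sample came from a separate animal, so p-values measure the spread between these samples, which may be technical. No treatment is listed for these groups.

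Fmr1 encodes FMRP, an RNA-binding protein that associates with polyribosomes and is best known for holding back translation of many long synaptic mRNAs. Its loss causes fragile X syndrome, an inherited form of intellectual disability, and the knockout mouse is the standard animal model. Because FMRP acts mainly on translation, messenger RNA levels show only part of what its loss does. Many FMRP targets encode scaffolds, channels and release proteins of the synapse, and FMRP is linked to group I metabotropic glutamate receptors and to the ERK and mTOR pathways.

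Fmr1 itself was examined first. The gene lies on the X chromosome of GRCm38 at chrX:68678541-68717963. It had 118.1, 127.1 and 118.7 CPM (counts scaled to library size) in WT replicates 1, 2 and 3, and 27.6, 33.8 and 31.7 CPM in KO replicates 1, 2 and 3. All 3 KO libraries were far below all WT libraries, so each library carried the Fmr1 level that its label implies. The KO mean was 25.6% of the WT mean, a log2 fold change of -1.97 (SE 0.0803, edgeR quasi-likelihood adjusted p = 3.03e-05). Which part of the transcript the remaining reads cover was not tested. The log2 fold change was -1.90 (SE 0.0528) in hippocampus and -1.80 (SE 0.0693) in cerebellum. Genes next to Fmr1 can carry alleles of the strain in which a mutation was made. Of 80 tested genes within 10 Mb of Fmr1, 19 had an unadjusted p under 0.05, beside 10.3% higher and 10.7% lower of all tested genes at that level, and 24 had WT and KO libraries that did not overlap, beside 26.0% of all tested genes without overlap.

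Beyond Fmr1, the genotype difference in cortex was small for single genes and spread over many. edgeR, with Benjamini-Hochberg adjustment over 14802 genes, called 3 genes at an adjusted p under 0.05, which is 0.0203% of those tested, and all 3 were lower in KO. An unadjusted p under 0.05 was found for 1522 genes higher in KO (10.3%) and 1588 lower (10.7%). A further 663 genes had an adjusted p between 0.05 and 0.1, 329 of them higher and 334 of them lower. The WT and KO libraries did not overlap for 3854 genes, 1964 higher (13.3%) and 1890 lower (12.8%). Most of these differences were small: 1541 of the genes without overlap differed by at least 0.25 on the log2 scale, 412 by at least 0.5 and 76 by at least 1. The median log2 fold change over all tested genes was -0.0016.

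Nr1d1 and Atmin were the genes called besides Fmr1. Nr1d1 encodes REV-ERB alpha, a nuclear receptor that represses Bmal1 in the circadian clock, and lies at chr11:98767932-98775333 on the minus strand. It had 129.7, 128.4 and 113.5 CPM in the WT libraries and 79.4, 82.3 and 80.0 CPM in the KO libraries. The groups did not overlap, and the KO libraries lay within 3 CPM of each other. Nr1d1 fell by 0.62 on the log2 scale (SE 0.0631, edgeR adjusted p = 0.035). Its last exon overlaps the end of Thra on the opposite strand, and no source used here says whether counting used strand. Thra itself had a log2 fold change of 0.02 (edgeR adjusted p = 0.911).

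Atmin encodes a zinc finger transcription factor that interacts with the DNA damage kinase ATM and lies at chr8:116943393-116960445. Its levels were 116.7, 112.6 and 106.4 CPM in WT and 81.0, 76.0 and 79.1 CPM in KO. The highest KO library stayed well under the lowest WT library. Atmin fell by 0.51 on the log2 scale (SE 0.0564, edgeR adjusted p = 0.048). In edgeR, both genes lost the call when any library other than WT replicate 3 was left out.

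The 10 genes of smallest p in each direction among those with at least 50 counts on average and no overlap between genotypes show what lay just under the threshold. All of them apart from the 3 called genes shared an edgeR adjusted p of 0.0668. On the lower side, Ide encodes insulin-degrading enzyme, a metalloprotease that also cleaves amyloid beta, and lies at chr19:37268743-37337852. It had 128.7, 106.1 and 96.6 CPM in WT and 66.1, 64.2 and 68.3 CPM in KO, without overlap, for a log2 fold change of -0.74. Arhgap35, which encodes the GTPase-activating protein p190A, had 383.9, 367.3 and 369.5 CPM in WT against 288.7, 283.4 and 300.7 CPM in KO, a log2 fold change of -0.36. Git1, a scaffold that recruits PAK and its exchange factor PIX to synapses, had a log2 fold change of -0.44. The others on this side were Vwf (-0.61), Zfpm1 (-0.85), Hhatl (-0.98) and Alox12b (-1.37).

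On the higher side the log2 fold changes were between 0.33 and 0.59. Hspa5 encodes BiP, the main chaperone of the endoplasmic reticulum (ER). Rpl39 encodes a small protein of the large ribosomal subunit, and it has processed copies in the genome, so its reads could have been split among them. Rpl39 had 30.5, 27.5 and 29.2 CPM in WT and 38.7, 42.0 and 40.7 CPM in KO, a log2 fold change of 0.48. Rnpc3, a protein of the minor (U12-type) spliceosome, had 29.3, 32.7 and 35.7 CPM in WT and 45.9, 50.3 and 50.4 CPM in KO, a log2 fold change of 0.59. Arpc5, a subunit of the actin-nucleating Arp2/3 complex, and Fnbp1l, which links membrane curvature to actin assembly, had log2 fold changes of 0.38 and 0.37. The others were Rgs17 (0.35), Mageh1 (0.43), Alg10b (0.40), Tmem167 (0.34) and 2610002M06Rik (0.33). A correction of the fit for transcript GC content, described below, left all of them positive but made several smaller. The corrected values were 0.14 for Fnbp1l, 0.16 for Rgs17, 0.17 for 2610002M06Rik, 0.19 for Tmem167 and 0.27 for Alg10b. They were 0.34 for Arpc5, 0.35 for Rnpc3, 0.39 for Hspa5, 0.42 for Mageh1 and 0.47 for Rpl39.

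**Figure D1:**
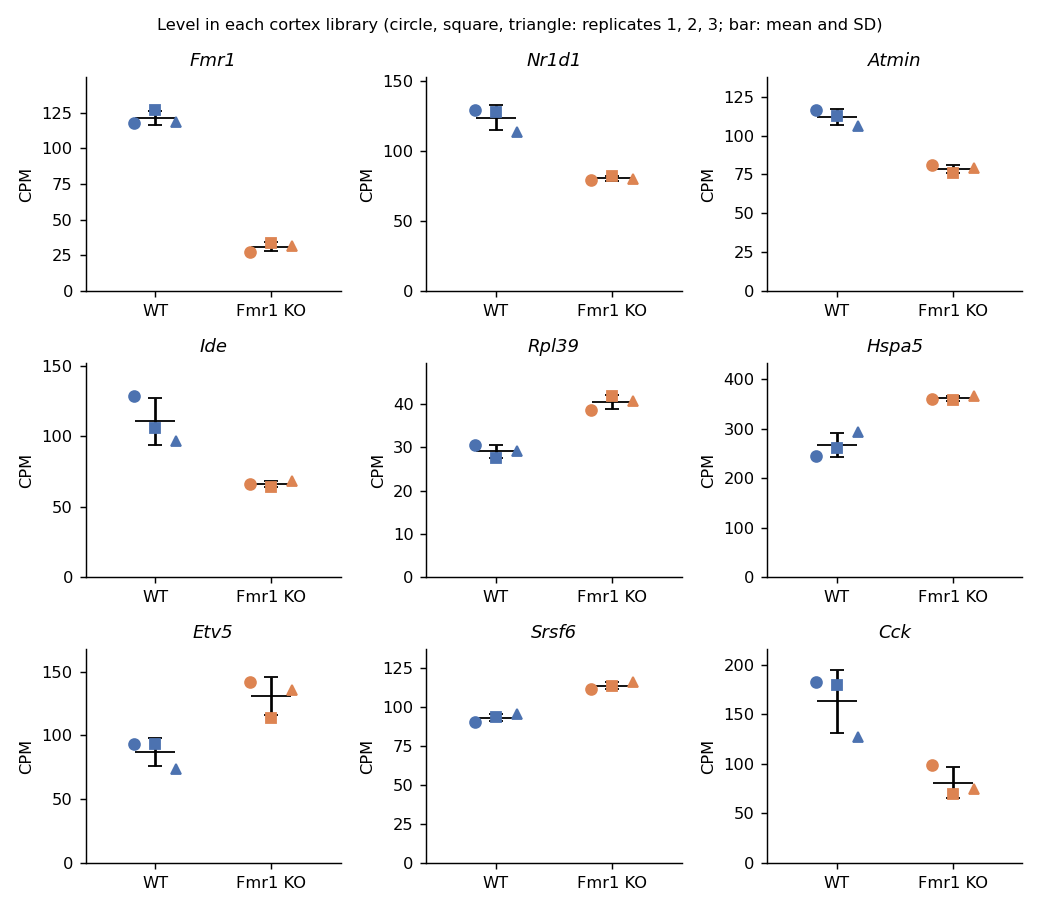
Levels of 9 genes in each cortex library, in CPM on linear axes, with WT and KO side by side; points are libraries, and bars give the mean and SD (n = 3). Fmr1, Nr1d1, Atmin and Ide are lower in every KO library, and Rpl39, Hspa5, Etv5 and Srsf6 are higher, while for Cck WT replicate 3 (126.8 CPM) lies between the other WT libraries and the KO libraries.

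The depth was similar within each genotype and higher in KO: 26264368 to 27786362 counts per WT library and 30719096 to 32574819 per KO library over 15777 gene symbols. The libraries differed in ways that the labels do not name. Markers of striatum, a region next to the cortex that dissection can include (9 genes such as Drd1, Penk and Ppp1r1b), summed to 443, 761 and 1508 CPM in WT replicates 1, 2 and 3 and to 2143, 1179 and 1153 CPM in the KO libraries. Markers of excitatory neurons summed to 5625, 5736 and 4646 CPM in WT and to 3889, 4290 and 4787 CPM in KO. These sums overlapped between genotypes by 1 library, and 5 of 8 excitatory markers had an unadjusted p under 0.05, all of them lower. In bulk tissue, fewer cells of a type and less RNA per cell cannot be told apart. Upper-layer markers had the range 1701 to 2054 CPM in WT and 1360 to 1884 CPM in KO, and deep-layer markers 353 to 427 CPM in WT and 425 to 591 CPM in KO. The astrocyte, oligodendrocyte precursor and microglia sums overlapped between genotypes, and those of blood (162 to 195 CPM in WT, 136 to 141 CPM in KO) did not.

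Transcript base composition differed between the libraries as well. For each library, the log ratio of each gene to its mean over the 6 libraries was set against the GC content of its longest transcript, a correlation across genes and not across samples. Spearman's coefficient was 0.50, 0.304 and 0.00064 in WT replicates 1, 2 and 3 and -0.281, -0.276 and -0.422 in the KO libraries. GC-rich transcripts were therefore relatively high in the first pair of WT libraries and relatively low in the KO libraries, with WT replicate 3 in between. The first principal component of all tested genes (39.3% of the variance) placed the WT libraries at -30.6, -16.9 and 7.42 and the KO libraries at 23.5, 13.1 and 3.48. On this axis WT replicate 3 lay inside the range of the KO libraries.

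**Figure D2:**
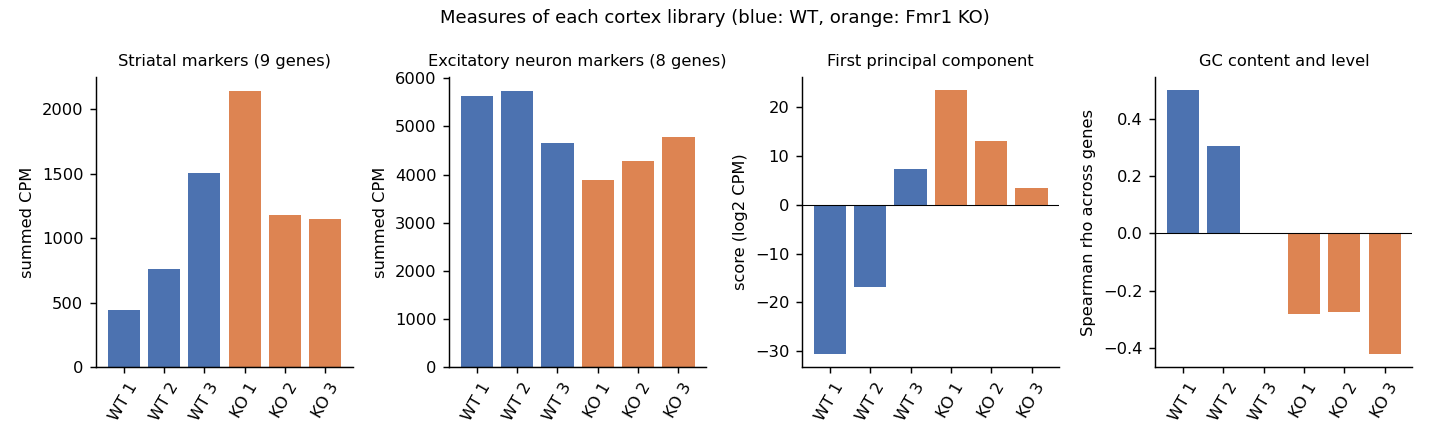
Summed CPM of striatal and of excitatory neuron markers, the score on the first principal component, and Spearman's coefficient across genes between transcript GC content and the log ratio of each gene to its mean, for each of the 6 cortex libraries. WT replicate 3 has 1508 CPM of striatal markers, inside the KO range of 1153 to 2143, and a coefficient of 0.00064 between those of the other WT libraries and the KO libraries.

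The genotype difference followed GC content across genes. Among the quintile of genes with the lowest GC content (31.0 to 43.9%), the median log2 fold change was 0.14, with 883 genes higher and 45 lower at an unadjusted p under 0.05. In the quintile with the highest GC content (55.6 to 71.3%) the median was -0.14, with 27 higher and 749 lower. The quintiles in between ran in order, with medians of 0.05, 0.0018 and -0.07. The same ordering was seen between WT libraries: the median difference of WT replicate 3 from WT replicates 1 and 2 was 0.08 in the lowest quintile and -0.12 in the highest. In hippocampus the medians of the lowest and highest quintiles were 0.06 and -0.03, and in cerebellum they were -0.0027 and 0.01. The offsets of the fit were then corrected for GC content in each library, an alternative chosen after the values were seen. Every quintile then had a median within 0.01 of 0. Such medians follow from the correction, which removes each library's trend with GC content, along with any genotype effect on that trend. With the correction, 1021 genes were higher (6.90%) and 1097 lower (7.41%) at an unadjusted p under 0.05. Whether the relation to GC content is technical or belongs to the genotype was not tested.

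**Figure D3:**
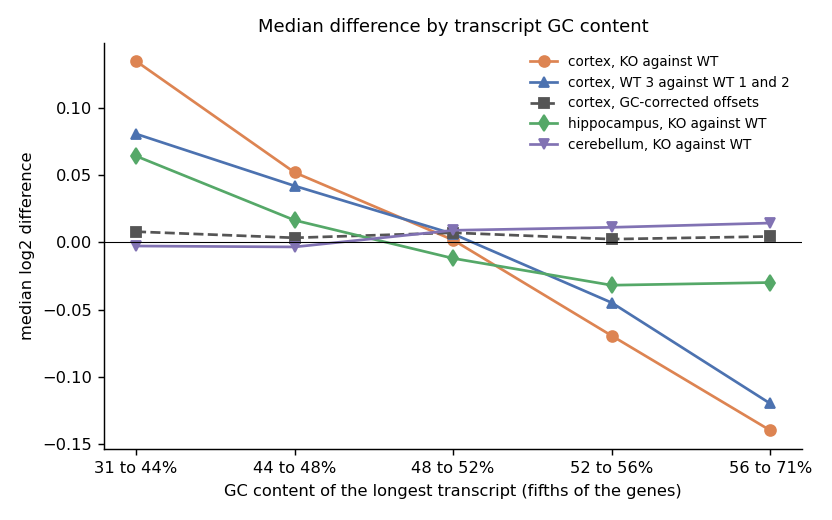
Median log2 difference of genes in each quintile of transcript GC content, for cortex KO against WT with and without the GC correction, for WT replicate 3 against the other WT libraries, and for hippocampus and cerebellum KO against WT. The uncorrected cortex medians run from 0.14 in the lowest quintile to -0.14 in the highest. The corrected medians are flat by construction of the correction.

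The number of genes called depended on WT replicate 3. Without it, edgeR called 1102 of 14970 genes (7.36%), 477 higher (3.19%) and 625 lower (4.18%) in KO, all 3 earlier calls among them. Leaving out any other single library gave 1 call, Fmr1. Of the 1100 genes called without WT replicate 3 and tested with it, 1065 had WT replicate 3 on the KO side of the other WT libraries, and 667 (60.6%) had it past the midpoint to the KO mean. The median position was 58.2% of the way to the KO mean. These genes were chosen for a difference between the KO libraries and WT replicates 1 and 2, so the place of WT replicate 3 in them is partly fixed by that choice and is a description. The median absolute log2 fold change of these genes was 0.385 without WT replicate 3 and 0.311 with it, and 1005 of them had an unadjusted p under 0.05 with it.

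In 9 of the 10 genes with the largest rises without WT replicate 3, that library lay within or above the range of the KO libraries. Gpr101, an orphan receptor, had 0.946, 1.163 and 8.02 CPM in WT and 10.97, 17.2 and 3.69 CPM in KO. Its log2 fold change was 3.32 without WT replicate 3 (edgeR adjusted p = 0.0292) and 1.66 with it (adjusted p = 0.256). Ndst4, a heparan sulfate sulfotransferase, had 1.59, 1.24 and 14.1 CPM in WT and 6.83, 8.11 and 4.65 CPM in KO, so that WT replicate 3 was the highest library of all. Adora2a, the adenosine receptor of striatal indirect-pathway neurons, had 9.05, 18.5 and 42.8 CPM in WT and 70.7, 38.5 and 34.1 CPM in KO. Chat, the enzyme that makes acetylcholine, had 0.719, 1.31 and 5.41 CPM in WT and 6.57, 2.68 and 2.86 CPM in KO. Others among the 10 largest rises were Nts, Gm10754, Dach1, Tacr1 and P2ry1, with log2 fold changes of 1.63 to 2.47 without WT replicate 3. WT replicate 3 was also the WT library with the highest striatal marker sum. With the log2 of that sum as a covariate in the fit of all libraries, all 10 genes had a lower log2 fold change. It went from 1.66 to 1.04 for Gpr101, from 1.14 to 0.46 for Dach1 and from 0.98 to 0.07 for Nts. For Tacr1 it went from 0.79 to 0.02, for Chat from 0.70 to -0.30 and for Ndst4 from 0.21 to -0.42. The part of the striatal sum in the differences without WT replicate 3 was not tested.

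The largest falls without WT replicate 3 behaved otherwise, since most of them had no overlap with it included. Cck, a neuropeptide of cortical excitatory and inhibitory neurons, had 182.9, 179.8 and 126.8 CPM in WT and 99.1, 69.4 and 75.0 CPM in KO. Its log2 fold change was -1.16 without WT replicate 3 (edgeR adjusted p = 0.0197) and -1.01 with it (adjusted p = 0.0668). Tnnc1, a troponin, had 8.06, 9.78 and 6.24 CPM in WT and 3.14, 1.78 and 3.85 CPM in KO. Cd6, Ntn5, Adam33, Stat4, Ppp1r14a and Tspan11 had log2 fold changes of -2.05 to -1.24 without that library. Cck and the excitatory marker Nrgn (1096, 1086 and 756 CPM in WT, 655, 551 and 719 CPM in KO) were both lower in every KO library, beside the lower excitatory marker sum.

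Other fits gave other counts. On the same 6 libraries, DESeq2 called 897 genes (432 higher, 2.92%, and 465 lower, 3.14%), limma voom with sample quality weights called 995, and a joint edgeR fit of the 18 brain libraries called 1277 for cortex. The sample weights were 0.70, 1.98 and 0.60 for the WT libraries and 0.83, 1.15 and 1.25 for the KO libraries, lowest for WT replicate 3. A set of 553 genes (239 higher, 314 lower) was called by DESeq2, voom, the joint fit and edgeR without WT replicate 3 alike. The authors' deposited table listed 1787 genes with an adjusted p under 0.05 (739 higher, 1048 lower). With the GC correction, edgeR called 2 genes with all libraries and 3 without WT replicate 3, namely Fmr1, Nr1d1 (-0.53, adjusted p = 0.0336) and Ide (-0.94, adjusted p = 0.035). With the log2 sum of striatal markers as a covariate, it called 1. Leaving out WT replicate 3 thus moved the count from 3 to 1102 without the GC correction and from 2 to 3 with it.

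**Figure D4:**
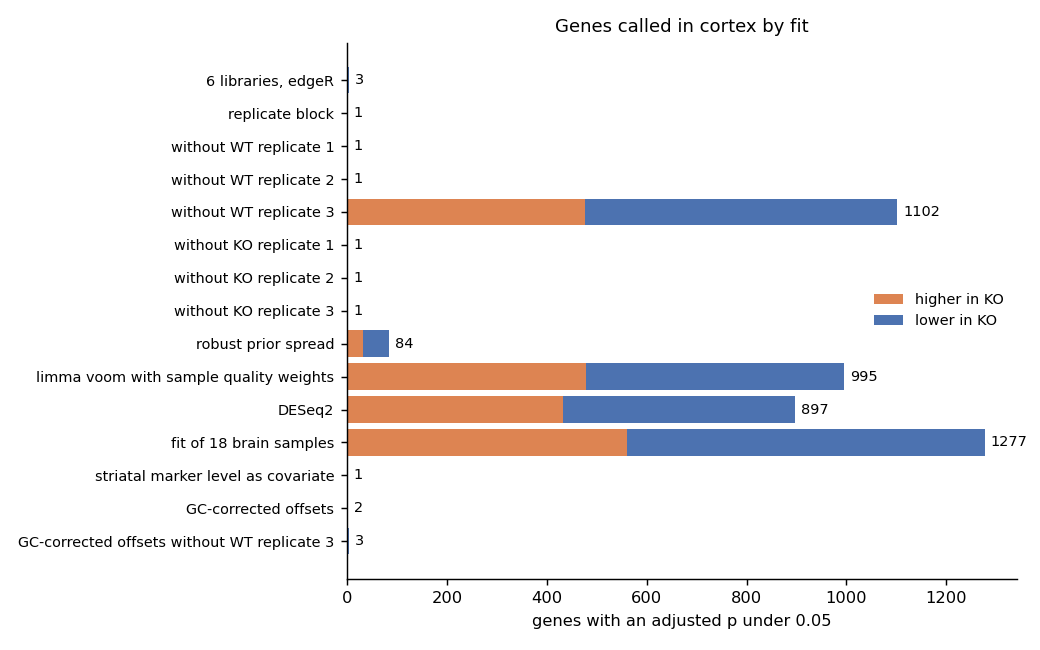
Number of genes with an adjusted p under 0.05 in each fit, on a linear axis, stacked into genes higher and genes lower in KO, with the total at the end of each bar. The counts are 1 when any library but WT replicate 3 is left out, 1102 without that library, and 1277 in the joint fit of the 18 brain libraries.

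Gene lists were described by the number of members higher or lower at an unadjusted p under 0.05, beside 10.3% and 10.7% of all tested genes. No member other than Fmr1 and Nr1d1 passed the adjusted threshold. Members named beyond the 4 of smallest p in a list were chosen after their values were seen. Splicing factors had the largest share in the higher direction without the GC correction, while with it ribosomal proteins did (25 of 79): 29 of 78 splicing factors were higher and 2 lower, 62 had a positive log2 fold change, and the median was 0.11. The 4 members of smallest p were Srsf6, Srsf7 and Srsf10, SR proteins that bind exonic enhancers, and Tial1, a U-rich RNA-binding protein of stress granules. Srsf6 had 90.4, 93.2 and 95.03 CPM in WT and 111.5, 113.0 and 115.9 CPM in KO, a log2 fold change of 0.29. Srsf7 (0.28), Srsf10 (0.32) and Tial1 (0.30) also had no overlap between groups. Rbfox3, the neuronal marker NeuN, was one of the members lower in KO, with a log2 fold change of -0.28. Among the Muscleblind proteins, which set developmental splicing patterns, Mbnl1 had a log2 fold change of 0.07 (edgeR adjusted p = 0.525), Mbnl2 0.15 (adjusted p = 0.193) and Mbnl3 0.99 at under 1 CPM (adjusted p = 0.219).

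The splicing factors are AT-rich, with a median transcript GC content of 43.9% beside 49.7% over all genes. With the GC correction the list median was 0.04, with 18 members higher and 3 lower at an unadjusted p under 0.05, beside 6.90% and 7.41% of all genes. When the striatal marker sum was a covariate, 25 were higher and 0 lower by edgeR, beside 7.36% and 7.37% of all genes. In hippocampus 18 members were higher and 3 lower, beside 6.36% and 6.12% of the genes tested there, and in cerebellum 3 were higher and 3 lower.

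Of 39 tested members of the heat shock and unfolded protein response list, 14 were higher and 5 lower, with a median of 0.04. Of the higher members, 9 were chaperones or folding enzymes of the ER (Hspa5, Hsp90b1, Calr, Canx, Pdia3, Pdia4, Pdia6, Dnajc3 and Dnajb9). The other 5 (Dnaja1, Dnajb4, Hspa4, Hspa4l and Hspe1) were chaperones of the cytosol or mitochondria. Hspa5 (chr2:34771970-34777547) had 245.1, 261.7 and 294.5 CPM in WT and 359.9, 358.5 and 367.0 CPM in KO, without overlap, for a log2 fold change of 0.44 (SE 0.0691). Calr, the calcium-binding lectin chaperone calreticulin, had 295.4, 323.8 and 353.1 CPM in WT and 389.5, 380.9 and 401.3 CPM in KO, a log2 fold change of 0.27. Dnajc3, a co-chaperone of BiP, had 81.7, 84.4 and 82.4 CPM in WT and 103.2, 95.1 and 95.1 CPM in KO, a log2 fold change of 0.24. Further members on this side, named after their values were seen, were the disulfide isomerase Pdia3 (0.24), the ER HSP90 Hsp90b1 (0.22) and the lectin chaperone Canx (0.14).

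The 5 lower members, of which Sesn2 had the smallest p, were Sesn2 (-0.56), Chac1 (-0.40), Dnajb5 (-0.20), Atf4 (-0.18) and Asns (-0.14). Atf4 is the transcription factor of the integrated stress response, Sesn2, Chac1 and Asns are among its targets, and Dnajb5 is a co-chaperone of the HSP40 family. Sesn2 had 9.81, 8.76 and 8.51 CPM in WT and 5.14, 6.61 and 6.58 CPM in KO. After the GC correction the numbers were 8 higher and 3 lower. In hippocampus 6 were higher and 1 lower, and in cerebellum 9 were higher and 5 lower, beside 3.77% and 4.95% of the genes tested there.

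Promoters were searched for the ER stress response element, which the transcription factor ATF6 binds with NF-Y. The motif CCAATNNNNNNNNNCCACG was sought on both strands in RefSeq promoters of GRCm38.p6, from 250 bases before to 50 bases after each gene's start. It was present in 39 of 32851 promoters (0.119%), in 19 of 11123 promoters of tested genes (0.171%), and in 7 promoters of the list. The promoters of Hspa5 at chr2:34771840-34772139 (plus strand) and of Calr at chr8:84846882-84847181 (minus strand) are shown, since both genes had non-overlapping groups; capitals mark the motif, which in Calr is on the reverse strand.
Hspa5: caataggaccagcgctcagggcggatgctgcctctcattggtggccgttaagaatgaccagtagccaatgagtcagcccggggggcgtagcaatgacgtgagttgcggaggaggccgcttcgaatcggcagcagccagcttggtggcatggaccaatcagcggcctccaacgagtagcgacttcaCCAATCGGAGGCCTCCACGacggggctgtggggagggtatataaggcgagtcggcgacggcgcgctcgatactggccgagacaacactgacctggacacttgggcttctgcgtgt
Calr: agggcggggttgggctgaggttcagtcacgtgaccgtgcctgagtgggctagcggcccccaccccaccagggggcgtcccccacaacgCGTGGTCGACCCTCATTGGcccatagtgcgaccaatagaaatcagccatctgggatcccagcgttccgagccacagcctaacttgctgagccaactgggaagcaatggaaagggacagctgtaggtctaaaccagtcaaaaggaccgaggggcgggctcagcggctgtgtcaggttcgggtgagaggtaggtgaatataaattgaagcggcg

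The 7 list genes with the motif were Hspa5, Hsp90b1, Calr, Canx, Pdia6, Creld2 and Dnajc3. All 7 had a positive log2 fold change in cortex, with a median of 0.22, and 6 had an unadjusted p under 0.05. They were also positive in hippocampus (median 0.14, 2 with an unadjusted p under 0.05) and in cerebellum (median 0.17, 4 at that level). With the GC correction the cortical median was 0.15, with 4 at that level. The 12 tested genes outside the list that hold the motif had a median of -0.05, with 5 positive and 0 at that level by edgeR in cortex. This search was made after the list's values were seen, and a match is not evidence that a factor binds there.

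Circadian clock genes had more members lower than higher. Of 23, 7 were lower and 2 higher, with a median of -0.07, and Nr1d1 was the called one. Dbp, a clock output factor of the PAR bZIP family, had 56.1, 54.9 and 54.8 CPM in WT and 47.9, 43.0 and 41.1 CPM in KO, a log2 fold change of -0.33. Bhlhe40, which represses E-box genes, had 111.7, 126.6 and 107.7 CPM in WT and 74.7, 86.9 and 95.7 CPM in KO, a log2 fold change of -0.43. Ciart, another repressor of the CLOCK and BMAL1 pair, had 13.2, 11.6 and 12.8 CPM in WT and 9.48, 9.14 and 7.198 CPM in KO, a log2 fold change of -0.54. None of these had overlapping groups. Further members were chosen after their values were seen: Per2 had a log2 fold change of 0.10 (edgeR adjusted p = 0.44), Arntl of -0.04 (adjusted p = 0.84) and Clock of 0.16 (adjusted p = 0.121). After the GC correction 6 members were lower and 1 higher. Dbp was not among the 6, with a log2 fold change of -0.14 (edgeR unadjusted p = 0.0967). Bhlhe40 had -0.43, Ciart -0.49 and Nr1d1 -0.50 in that fit. In hippocampus 5 were lower and 2 higher, and in cerebellum 0 were lower and 2 higher by edgeR at that level, with a median of -0.0018. The labels used here give no time of collection.

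Among 57 well-known FMRP target mRNAs, 15 were lower and 3 higher, with a median of -0.06. The lower ones included postsynaptic scaffolds. Shank1, which ties PSD-95 complexes to Homer, had 486, 512 and 376 CPM in WT and 290, 298 and 325 CPM in KO, a log2 fold change of -0.59. Dlgap3, a Shank-binding scaffold, had 292, 287 and 244 CPM in WT and 203, 181 and 201 CPM in KO, a log2 fold change of -0.49. Shank3 (-0.31) and Kcnc1, the fast potassium channel Kv3.1 (-0.44), also had groups without overlap. WT replicate 3 was the lowest WT library for all 4. The targets are a literature list, and with the GC correction their median was -0.03, with 9 lower and 3 higher. In that fit Shank3 had a log2 fold change of -0.11 (edgeR unadjusted p = 0.186), Dlgap3 of -0.26, Kcnc1 of -0.31 and Shank1 of -0.39. In hippocampus 3 were lower and 3 higher.

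Of 46 genes of the presynaptic release machinery, 13 were lower and 3 higher, with a median of -0.05. Syt2, a fast calcium sensor of parvalbumin interneuron terminals, had 50.3, 46.3 and 40.8 CPM in WT and 33.4, 24.0 and 29.7 CPM in KO, a log2 fold change of -0.66. Vamp1, a vesicle SNARE, had 176.7, 173.1 and 142.9 CPM in WT and 119.3, 94.7 and 121.2 CPM in KO, a log2 fold change of -0.56. Cplx1, which clamps the SNARE complex, had a log2 fold change of -0.38. Pvalb, a marker of the interneurons that use Syt2, had 35.7, 40.1 and 31.0 CPM in WT and 26.6, 18.2 and 23.4 CPM in KO, a log2 fold change of -0.65 (edgeR adjusted p = 0.0774). With the GC correction the list had 5 members lower and 2 higher. Syt2 (-0.62), Vamp1 (-0.59) and Pvalb (-0.65) kept their values to within 0.05, while Cplx1 went to -0.27. Over all 12 inhibitory neuron markers the median was -0.03, 2 (Pvalb and Cck) were lower with an unadjusted p under 0.05, and the sums overlapped (1323 to 1456 CPM in WT, 1213 to 1521 CPM in KO). When the striatal marker sum was a covariate, the presynaptic list had 7 members higher and 7 lower, with a median of 0.02. In hippocampus 4 were higher and 2 lower.

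Voltage-gated channels had 13 of 49 members lower and 6 higher, with a median of -0.09. Hcn2, a hyperpolarization-activated cation channel, had 122, 118 and 108 CPM in WT and 89.8, 78.6 and 79.0 CPM in KO, a log2 fold change of -0.49. Scn3a, a sodium channel mainly of immature neurons, went the other way, with 59.6, 60.7 and 73.5 CPM in WT and 94.6, 88.7 and 82.9 CPM in KO, a log2 fold change of 0.46. The GC-corrected fit had 15 lower and 8 higher, with Hcn2 at -0.24 and Scn3a at 0.35.

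Receptor lists were mixed. Of 27 glutamate receptor and Homer genes, 5 were higher and 3 lower. Grm5, the metabotropic receptor mGluR5, had 266.9, 273.5 and 336.3 CPM in WT and 373.5, 407.3 and 341.9 CPM in KO, a log2 fold change of 0.36. The kainate receptor subunits Grik2 (0.43) and Grik5 (-0.24) differed in direction. With the GC correction Grik2 had 0.26, Grm5 had 0.26 and Grik5 had -0.05 (edgeR unadjusted p = 0.364), and the list had 3 higher and 3 lower. Of 25 GABA synapse genes, 2 were higher and 5 lower, among them Gabrd, the extrasynaptic delta subunit (-0.42), and Slc12a5, the chloride exporter KCC2 (-0.29). Gabra2 (0.38) was on the other side. The GC-corrected fit had 0 higher and 6 lower of the GABA synapse genes by edgeR at that level.

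Immediate early genes, which neurons induce with activity, had 9 of 36 members lower and 0 higher by edgeR at an unadjusted p under 0.05, with a median of -0.07. Jund had 50.3, 40.9 and 33.7 CPM in WT and 28.2, 30.3 and 28.2 CPM in KO, a log2 fold change of -0.52. Dusp5, a phosphatase that inactivates nuclear ERK, had 4.24, 4.33 and 2.50 CPM in WT and 1.84, 2.22 and 2.08 CPM in KO, a log2 fold change of -0.85, and Vgf, a secreted neuropeptide precursor, one of -0.40. Their transcripts are GC-rich (median 55.3%), and with the GC correction 6 were lower and 1 higher. When the striatal marker sum was a covariate, 2 were lower and 3 higher, and in hippocampus 5 were higher and 3 lower.

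Of 17 feedback genes of the ERK pathway, 2 were higher and 1 lower. With the GC correction 5 were higher and 1 lower, beside 6.90% and 7.41% of all genes. In hippocampus 4 were higher and 1 lower, beside 6.36% and 6.12% of the genes tested there. In cerebellum 6 were higher and 0 lower by edgeR at that level, beside 3.77% and 4.95%. Etv5, a transcription factor of the PEA3 group that FGF and ERK signalling induce, lies at chr16:22381309-22439719. It had 93.1, 93.4 and 73.9 CPM in WT and 142.0, 113.7 and 135.9 CPM in KO, without overlap, for a log2 fold change of 0.59. WT replicate 3 lay away from the KO libraries for this gene, and the log2 fold change was 0.48 without it. Etv5 was also higher in hippocampus, by 0.71 (edgeR adjusted p = 0.0331), and in cerebellum, by 0.97 (adjusted p = 4.54e-05). Its relatives Etv4 (-0.07) and Etv1 (0.16) and the ERK-induced Spry2 (0.02), Spry4 (-0.15) and Dusp6 (-0.13) had edgeR unadjusted p of 0.142 or more in cortex.

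Lists for protein synthesis and energy metabolism showed small values. Of 22 FMRP relatives and partners, 6 were higher and 2 lower, Fmr1 included. The paralog Fxr1 had a log2 fold change of 0.15, and 0.00 with the GC correction. The mTOR and translation control list had 6 higher and 7 lower of 44, with Eif2s1 at 0.26, Rictor at 0.20 and Tsc2 at -0.21. With the GC correction that list had 2 higher and 3 lower, with Eif2s1 at 0.13, Rictor at 0.09 and Tsc2 at -0.12. Ribosomal protein genes had 9 higher and 1 lower of 79, with a median of 0.05. The GC-corrected fit had 25 higher and 1 lower, with a median of 0.07. In hippocampus 2 were higher and 6 lower. Many of these genes have processed copies, so their counts are uncertain. The others had 7 higher and 2 lower of 76 oxidative phosphorylation genes, 1 and 4 of 24 cholesterol synthesis genes, 5 and 7 of 62 chromatin regulators, and 3 and 1 of 32 proteasome genes.

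**Figure D5:**
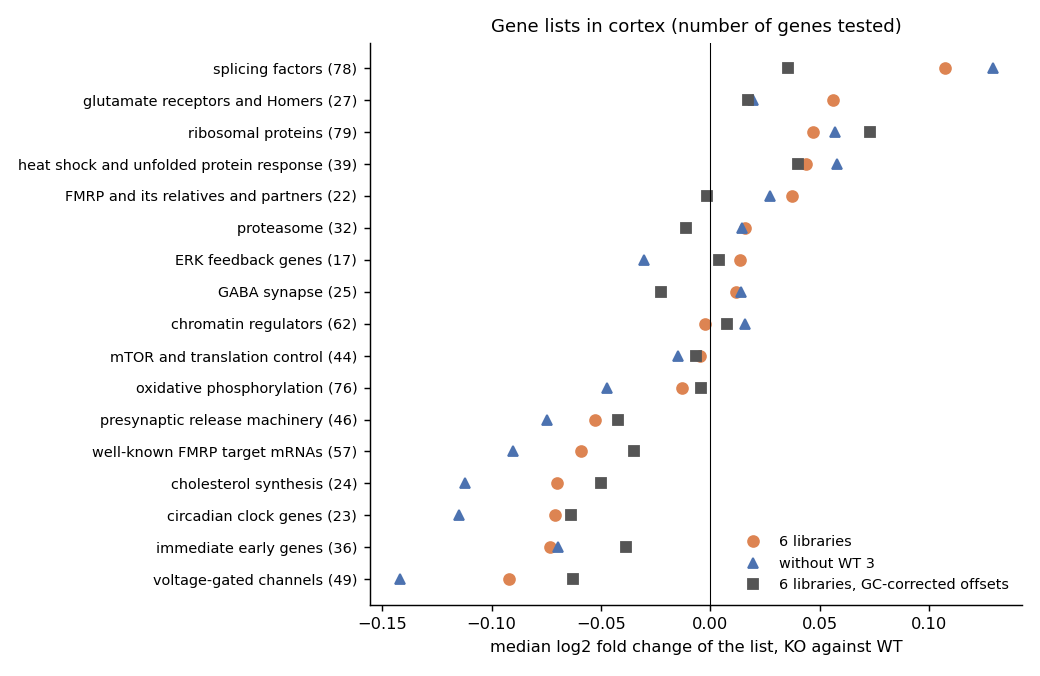
Median log2 fold change, KO against WT, of each gene list in cortex, with the number of genes tested in parentheses: circles are the fit of all 6 libraries, triangles the fit without WT replicate 3, and squares the fit with the GC correction. With all libraries, splicing factors lie furthest to the higher side at 0.11 (0.04 with the GC correction, where ribosomal proteins lie at 0.07), and voltage-gated channels furthest to the lower side at -0.09 (-0.06 with it).

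The difference of the genotype effect between brain regions was tested in a joint fit. With all libraries, edgeR called 0 of 15504 genes (0.00%) between cortex and hippocampus, where 1561 had an unadjusted p under 0.05, and 0 between cortex and cerebellum, where 2349 did. Without cortex WT replicate 3 the counts were 179 and 465. Cck had the log2 fold changes -1.01 in cortex, 0.15 in hippocampus and 0.09 in cerebellum. The cortex minus hippocampus difference was -1.16 (edgeR adjusted p = 0.189). For Nr1d1 that difference was -0.34 (adjusted p = 0.374), with a log2 fold change of -0.28 in hippocampus and -0.17 in cerebellum.

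Many of the 10 genes of smallest p in each cortical direction had the same sign in the other regions, which were separate libraries but may come from the same animals. Of the 10 lower genes, Fmr1 among them, 10 were lower in hippocampus. Of those, 9 had an unadjusted p under 0.05, beside 6.12% of all genes tested there. In cerebellum 8 of the 9 measured were lower, 5 of them at that level, beside 4.95% of all genes. Ide had log2 fold changes of -0.66 in hippocampus (edgeR adjusted p = 0.07) and -0.75 in cerebellum (adjusted p = 0.0059). Atmin had -0.30 and -0.19. Of the 10 higher genes, 9 were higher in hippocampus, 5 of them with an unadjusted p under 0.05, beside 6.36% of all genes. In cerebellum 8 were higher, 2 of them at that level, beside 3.77% of all genes. Hippocampus also differed by GC content, with medians of 0.06 and -0.03 in the lowest and highest quintiles. The part of GC content in the shared signs was not tested. Hspa5 had 0.31 in hippocampus and 0.21 in cerebellum. Rpl39 was the exception in hippocampus, with -0.20.

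Exon use was read from the authors' tables of splice events, which give reads across the junctions of each form in 2 sets of 3 replicates. The tables number the sets and replicates without naming them, so which set is WT, and which replicate is WT replicate 3, cannot be told from them, and the direction of a difference is given by set. Inclusion is the length-corrected percent of junction reads that support the longer form or, for mutually exclusive exons, the first form listed. Of 7176 skipped exons listed, 3931 had at least 20 junction reads per library on average. A quasi-binomial test moderated with limma called 0 of them (0.00%) at an adjusted p under 0.05 and a difference of at least 10 percentage points, and 177 (4.50%) had an unadjusted p under 0.05. The sets did not overlap for 143 exons (3.64%). The authors' deposited table gave 71 exons at that FDR and difference, 0.989% of those listed. Their median junction coverage was 7.17 reads, and 8 of them reached 20.

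Sequences of 3 events among those of smallest p are shown, in GRCm38, to give the bases that the forms differ by; lower case gives the 15 bases of the neighbouring exons, and capitals the alternative bases. All 3 lie in coding regions and keep the reading frame. Syt1 is the main calcium sensor of fast transmitter release, and an alternative 3′ splice site adds 9 bases at chr10:108636665-108636673 (minus strand). Cadps encodes CAPS1, which primes dense-core vesicles, and skips a 12-base microexon at chr14:12517804-12517815 (minus strand). Ndrg2, an astrocyte-rich protein of the NDRG family, skips 42 bases at chr14:51911086-51911127 (minus strand).
Syt1: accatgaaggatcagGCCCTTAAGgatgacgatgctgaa
Cadps: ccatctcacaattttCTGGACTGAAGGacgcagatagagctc
Ndrg2: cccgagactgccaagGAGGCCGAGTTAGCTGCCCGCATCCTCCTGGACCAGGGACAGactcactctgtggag

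The 9 bases of Syt1 were included in 53.0%, 58.6% and 54.5% of transcripts in set 1 and in 40.4%, 45.0% and 43.0% in set 2. The sets did not overlap, and the event had 445.5 junction reads per library on average. The difference was 12.6 percentage points (moderated quasi-binomial test with limma, adjusted p = 0.0606 over the 298 alternative 3′ splice sites covered). The authors' deposited table gave this event an FDR of 0.00147. The adjusted p was 7.27e-04 when the moderation ignored coverage. Mff encodes the mitochondrial receptor that recruits the fission GTPase DRP1. Its 159-base exon, in place of a 60-base one, was used in 42.5%, 40.6% and 51.2% in set 1 and 59.5%, 54.98% and 62.5% in set 2, a difference of -14.2 points (limma adjusted p = 0.123). These events were singled out after their values were seen. Over all 848 covered events of types other than skipped exons, the test called 0, and 45 had an unadjusted p under 0.05.

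Among skipped exons, the Cadps microexon was included in 53.0%, 43.8% and 50.7% in set 1 and in 73.8%, 70.2% and 55.2% in set 2, a difference of -17.2 points at 123.7 reads. The Ndrg2 exon was included in 17.8%, 13.8% and 15.7% in set 1 and in 25.1%, 25.3% and 22.3% in set 2, a difference of -8.49 points. The sets of both exons did not overlap, but every exon among the 10 of smallest p had an adjusted p of 0.473 in the test moderated with limma. Others of the 10 were in Fam98b, Syne1, Ino80e, Rims2, Srgap3, Enpp2 and Atrnl1. Their differences had absolute sizes of 3.67 to 29.8 points, with Ino80e, a subunit of a chromatin remodeller, at the upper end on 29.3 reads.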

How the data were processed

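Poly(A) RNA of each tissue was made into directional libraries, per the labels' protocols. Gene counts were deposited by the authors as whole numbers per gene symbol. The submitters' processing notes name CASAVA, FastQC 0.11.8, Trimmomatic 0.39, Bowtie2 2.3.5, STAR 2.6.1, RSEM 1.3.1 and DESeq2 1.16.1, with the builds GRCm38 and mm10, without saying which step used which. Whether counting used strand or molecular indices is not given in the sources used here. The authors also deposited a comparison table with log2 fold changes and p-values, and tables of splice events with junction read counts, p-values and false discovery rates, per the file headers. The tool version behind the splice tables is not given in the sources used here.

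From the deposited counts, genes passing edgeR's expression filter were tested with its quasi-likelihood test on KO and WT cortex (edgeR 4.0.16, TMM scaling, R 4.3.3). CPM values are counts scaled to TMM-adjusted library size. Standard errors were derived from the fit. Other fits used DESeq2 1.42.0 and limma 3.58.1. The test was checked on simulated counts of the same 14802 genes. It recovered 94 of 100 genes changed by 1 on the log2 scale and 71 of 100 changed by 0.5, with 6 unchanged genes called. The simulated spread followed the trend with expression only, without gene-specific spread or library-wide differences such as those in GC content. Recovery in the real libraries was therefore not measured. For exons, a quasi-binomial fit per event was moderated with limma with a trend on coverage, a choice made after the values were seen, because moderation without it called 23 unchanged exons among 3931 simulated ones, against 9 with it; with it, 102 of 200 exons shifted by 0.25 in inclusion were recovered, and without it 140. Of the splice rows, 8 could not be read and were left out. Recomputed inclusion differences matched the deposited ones within 0.002.

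Gene coordinates and transcript GC content came from the GENCODE annotation of GRCm38, and promoters from RefSeq; 14180 tested genes (95.8%) had a GC value. Total counts were higher in the KO than in the WT libraries, and fits used them as offsets. Genes named were those called, the 10 of smallest p in each direction, the 10 largest rises and falls without WT replicate 3, the 10 genes in which that library stood most above and most below the other WT libraries, and up to 4 members of smallest p per list. Other genes named in the text were chosen after their values were seen. The members and lists were chosen with earlier results of these data known. The labels do not say whether the replicate numbers pair the samples. Deviations of same-numbered WT and KO libraries correlated at -0.231, -0.155 and -0.279 across genes, and those of differently numbered ones at -0.00422 to 0.223. Deviations within a group of 3 depend on each other, so these values cannot exclude a shared batch. Alternatives were other scaling, filters, tools, left-out libraries, a replicate block, a striatal covariate and a GC correction of the offsets. Among them, the striatal covariate, the GC correction, DESeq2 or the GC correction without WT replicate 3, the fit without both KO replicate 1 and WT replicate 3, and the other exon moderations were added after the values were seen. A few genes that these rules select are not reported here.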

Additional observations from a re-analysis of the deposited data

Results flagged for a closer look

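Growth hormone RNA (Gh), a product of the anterior pituitary, did not enter the comparison because it failed the expression filter. It had 0, 2 and 1 counts in the WT libraries and 73584, 24 and 10 counts in KO replicates 1, 2 and 3, so that the level in 1 KO library stood far above that of the control libraries. Pomc, another pituitary transcript, had 601 counts in KO replicate 1 and 12 to 21 in the other 5 libraries, and Epcam had 263 counts against 2 to 6. Its part in the genotype comparison was not tested, but without KO replicate 1 edgeR called 1 gene, Fmr1, and without both KO replicate 1 and WT replicate 3 it called 1112.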

How the results depend on the processing

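The 3 calls in cortex were 3 under another scaling, without the expression filter and with the earlier quasi-likelihood method, and 2 with the GC correction. They were 84 with a robust prior, 897 with DESeq2, 995 with voom weights, 1277 in the joint fit, 1 with the striatal covariate, 1879 with DESeq2 without WT replicate 3, and 1112 without KO replicate 1 and WT replicate 3. Leaving out each library in turn gave 1 to 1102 calls. With the replicate number as a block, 1 gene, Fmr1, was called, and whether the numbers pair the samples is not known. Leaving out each library gave 0 to 179 calls between cortex and hippocampus and 0 to 465 between cortex and cerebellum; the highest values were without cortex WT replicate 3, and without cortex KO replicate 1 they were 1 and 9. Fmr1 was called in every fit run. The deposited FDR gave 71 skipped exons and 52 other events against 0 and 0; at least 50 junction reads gave 1 other event (Syt1), moderation without the trend 2, and leaving out each replicate 0 to 1. A few named genes changed sign: with the striatal covariate Ndst4 had -0.416 and Chat -0.296, leaving out each library gave Ndst4 values from -0.269 to 2.2 (-0.231 without WT replicate 1 and -0.269 without WT replicate 2), Psmc6 had -0.0237 with the GC correction and -0.0892 with it and without WT replicate 3, and Ehmt2 had 0.0055 in the latter fit. The cause of these changes was not tested. Genotype and the library measures that differ with it (striatal markers, GC content) rest on 3 samples a group and cannot be fully told apart. Splice events with few junction reads limit the exon results.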

Other observations

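Some gene groups outside the lists varied between libraries of the same genotype; they were picked after their values were seen. Slc5a7, the choline transporter of cholinergic neurons, had 58, 143 and 474 counts in WT replicates 1, 2 and 3 and 755, 310 and 288 counts in the KO libraries. Lhx8, a transcription factor of basal forebrain cholinergic neurons, had 0, 14 and 72 counts in WT and 105, 25 and 34 counts in KO. Ngfr, the neurotrophin receptor that these neurons carry, had 19, 17 and 95 counts in WT and 132, 42 and 39 counts in KO. WT replicate 3 and KO replicate 1 were the highest library of their genotype for all 3, as they were for the striatal marker sum. Ttr, the transthyretin of choroid plexus, had 661, 257 and 1555 counts in WT and 68, 6525 and 53 counts in KO, so that 1 KO library was high and the others were below every WT library.

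Genes in which WT replicate 3 stood most above the other WT libraries included Dlk1 (1.06 and 0.981 CPM in WT replicates 1 and 2, 11.1 CPM in WT replicate 3) and Six3 (0.492, 3.74 and 9.11 CPM), a transcription factor of ventral forebrain. Dlk1 had 41.4, 5.40 and 1.09 CPM in the KO libraries. Those furthest below included Rnf39 (3.37, 3.02 and 1.51 CPM) and Mei1 (3.75, 4.51 and 1.97 CPM).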
